A study of Rattus norvegicus with 12 samples.

Results

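Tuft cells are scarce epithelial cells of the gut that sense the contents of the lumen. Expression of 8 genes that mark them was measured here in rat intestinal mucosa after massive bowel resection. The genes were Pou2f3 and Gfi1b (transcription factors), Trpm5 and Plcg2 (signalling), Dclk1 (a kinase used as a marker), and Hpgds, Alox5ap and Ptgs1 (eicosanoid synthesis). They were chosen by name from what is known of tuft cells, but with earlier results of these data known. Of the 13336 named genes on the array, 6 of the 8 had a probe, 1 each; Trpm5 and Ptgs1 had none named in the table used here and were not analysed. The probes of 5 of these 6 passed the detection filter (detection p under 0.05 on at least 3 of 12 arrays, which kept 9137 of 22517 probes), and Gfi1b did not.

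The rats were male and of a strain spelled Spraque Dawley in the labels, 6 per operation. In SBS rats (short bowel syndrome), 75% of the bowel was removed. In sham rats, the bowel was cut and joined again. The 12 arrays held total RNA of mucosa from 4 SBS ilea, 3 sham ilea, 4 SBS jejuna and 1 sham jejunum, and came from 4 SBS and 3 sham rats by the sample codes, which are read here as rats. The labels give no age, no time after surgery and no site of sampling within a region. The series was made to profile genes related to platelet-derived growth factor.

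In mice, POU2F3 is needed for tuft cells to form. Tuft cells detect luminal compounds such as succinate through receptors that act by way of phospholipase C, calcium release and the channel TRPM5. They answer with interleukin 25, leukotrienes and prostaglandins, which act on innate lymphoid cells, and interleukin 13 from these cells in turn raises the number of tuft and goblet cells. None of the 8 genes is exclusive to tuft cells: Plcg2 also works in B cells and myeloid cells, Hpgds and Alox5ap in mast cells and other leukocytes, and Gfi1b in red cell and platelet precursors. In mucosa, a bulk sample, fewer cells of a type and less RNA per cell cannot be told apart.

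Of the genes with differences called below, Plcg2 and Dclk1 had a promoter in the table used here and Pou2f3 had none. The promoter stretches of Plcg2 and Dclk1 are shown as RefSeq gives them for the rat assembly GRCr8. Each runs from 250 bases before to 50 bases after a transcript start. That of Plcg2 is at the start of the annotated gene, while that of Dclk1 lies within the annotated gene, at an internal start. Capitals mark the GC box GGGCGG or its reverse CCGCCC. The Plcg2 promoter lies at chr19:62455946-62456245 and the Dclk1 promoter at chr2:141782634-141782933, both on the plus strand.
Plcg2: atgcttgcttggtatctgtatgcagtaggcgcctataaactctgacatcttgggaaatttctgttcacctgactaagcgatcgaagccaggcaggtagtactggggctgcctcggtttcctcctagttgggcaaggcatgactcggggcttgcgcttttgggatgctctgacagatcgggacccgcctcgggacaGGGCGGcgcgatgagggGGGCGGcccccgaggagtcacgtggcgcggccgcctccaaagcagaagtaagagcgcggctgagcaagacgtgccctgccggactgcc
Dclk1: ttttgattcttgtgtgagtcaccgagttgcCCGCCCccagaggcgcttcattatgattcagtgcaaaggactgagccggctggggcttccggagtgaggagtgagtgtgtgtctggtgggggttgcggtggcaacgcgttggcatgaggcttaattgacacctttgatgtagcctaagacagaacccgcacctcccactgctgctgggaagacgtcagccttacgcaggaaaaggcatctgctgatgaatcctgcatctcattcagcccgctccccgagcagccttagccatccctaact
The table of promoters held 5 of the 8 genes (Dclk1, Trpm5, Ptgs1, Gfi1b and Plcg2). POU2 factors bind the octamer ATGCAAAT and the related ATGCTAAT. Searched on both strands, these letters were in 0 of the 5 promoters, against 1.78% and 0.905% of the 33469 promoters in the table. The GC box, a search added after the sequences were seen, had 2 matches in the Plcg2 promoter, 1 in that of Dclk1 and 0 in the other 3, against 1 match or more in 33.1% of all promoters. The Plcg2 promoter had 61.0% G and C with 22 CG pairs and the Dclk1 promoter 56.0% with 13, beside medians of 51.7% and 7 over all promoters.

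Across the arrays, 7041 to 8821 probes were detected and median bead signals were 52.1 to 62.5. Some libraries stood apart. SBS jejunum 1 (rat 36) had a log2 level of 9.13 for Pnlip, pancreatic lipase, which was at most 5.31 elsewhere. Fabp6, the ileal bile acid binding protein, had levels of 5.98, 6.17 and 7.17 on SBS jejunum 1 to 3, but 13.57 on SBS jejunum 4 and 11.51 on the sham jejunal array. Gata4, a factor of proximal small intestine, was detected on all jejunal arrays (6.66 to 7.31 in SBS rats and 6.56 in the sham rat) and on 0 ileal arrays. Calls of tuft cell genes and of marker lists that rest on SBS jejunum 1 or 4 are given without each in turn, and there is no result for sham jejunum without its 1 array. The codes differ within each group, and p-values measure the spread between these arrays.

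Pou2f3 was the transcription factor that could be followed. Its log2 level was 4.58, 4.71, 4.45 and 4.52 in SBS ileum 1 to 4, against 5.18, 5.48 and 5.15 in sham ileum 1 to 3. In jejunum it was 4.28, 4.28, 4.29 and 4.42 in SBS rats, against 5.15 in the sham rat. All 4 sham arrays lay above all 8 SBS arrays, and of the SBS arrays the probe was detected on SBS ileum 2 alone. Pou2f3 thus passed the detection filter through the sham arrays, so that to pass at all it had to be higher there.

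Gfi1b, which tuft cells express beside Pou2f3, had a level of 4.48, 4.53, 4.51 and 4.79 in SBS ileum and of 4.41, 4.55 and 4.47 in sham ileum. In jejunum, the levels were 4.97, 4.43, 4.52 and 4.58 in SBS rats and 4.45 in the sham rat. The groups overlapped, and the probe was detected on SBS ileum 4 and SBS jejunum 1 only. With all 22517 probes fitted, its log2 difference was 0.10 ± 0.12 (SE) in ileum (adjusted p = 0.878 in limma) and 0.17 ± 0.18 in jejunum (adjusted p = 0.964).

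Plcg2 encodes phospholipase C gamma 2, an enzyme that releases the messengers behind calcium signals. It was detected on all 12 arrays. Its log2 level was 7.01, 7.68, 7.25 and 6.86 in SBS ileum, against 8.20, 8.76 and 8.82 in sham ileum. In jejunum it was 5.99, 5.24, 6.01 and 6.03 in SBS rats, against 7.88 in the sham rat. Each SBS array lay below each sham array, and each SBS jejunal array below each SBS ileal one. The deposited bead signals, before any normalization, were 135.5, 277.0, 186.6 and 137.9 in SBS ileum and 334.8, 516.8 and 495.3 in sham ileum. Those of jejunum were 87.5, 75.3, 86.7 and 126.9 in SBS rats and 256.8 in the sham rat. In each region the SBS signals lay below the sham signals of that region, while SBS ileum 2 lay above the sham jejunum.

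Dclk1 encodes doublecortin-like kinase 1, a widely used tuft cell marker in mice. Its log2 level was 5.17, 4.73, 5.41 and 4.86 in SBS ileum and 5.50, 5.58 and 5.74 in sham ileum. The groups did not overlap, with SBS ileum 3 closest to the sham arrays. In jejunum, it was 4.42, 4.42, 4.42 and 4.44 in SBS rats, with the probe detected on none of the 4 arrays, and 5.19 in the sham rat, where it was detected.

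Hpgds makes prostaglandin D2, and Alox5ap presents arachidonic acid to 5-lipoxygenase for leukotriene synthesis. Hpgds had a log2 level of 4.43, 5.03, 4.41 and 4.37 in SBS ileum and of 5.10, 5.09 and 5.72 in sham ileum. In jejunum it was at 4.33, 4.41, 4.36 and 4.32 in SBS rats and at 4.93 in the sham rat. Like Pou2f3, it was detected on the 4 sham arrays and on SBS ileum 2 only, and so passed the filter mainly through sham arrays. Alox5ap had levels of 4.49, 5.22, 5.17 and 4.90 in SBS ileum and of 5.13, 5.04 and 5.22 in sham ileum. Its jejunal levels were 4.78, 4.72, 4.73 and 4.86 in SBS rats and 4.96 in the sham rat. In ileum the groups overlapped, with only SBS ileum 1, where the probe was not detected, well below the sham arrays.

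**Figure D1:**
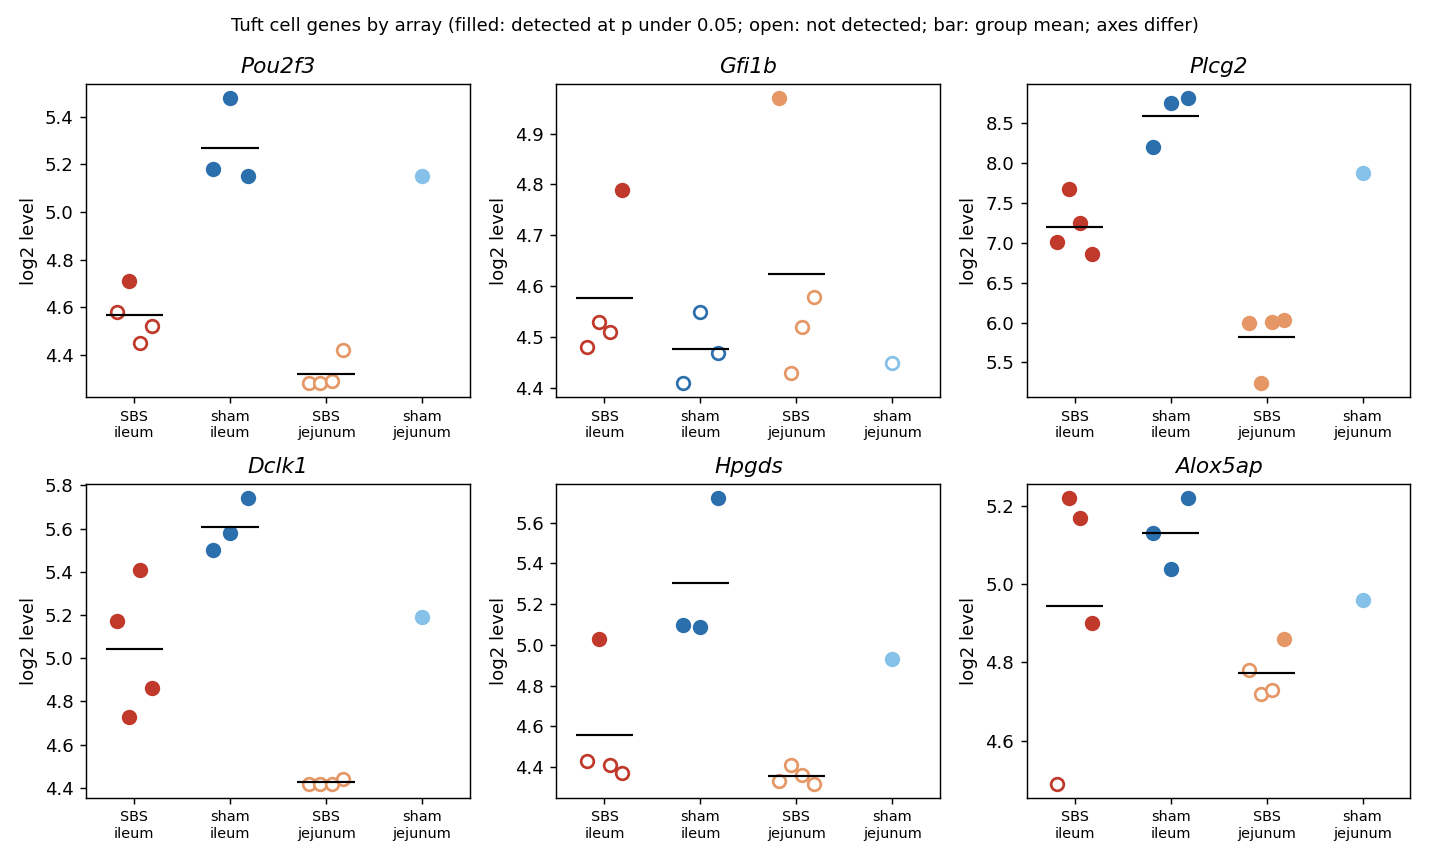
Log2 level (y axis, background corrected and quantile normalized; axes differ between genes) of 6 tuft cell genes on each array, by group; filled points are detected at p under 0.05, open points are not, and bars are group means. Plcg2 is detected on all 12 arrays, with SBS arrays at 5.24 to 7.68 and sham arrays at 7.88 to 8.82, while Gfi1b is detected on 2 arrays and its groups overlap.

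Resected ileum had a 2.63-fold lower level of Plcg2 than sham ileum. Plcg2 averaged 7.20 ± 0.36 in SBS ileum and 8.60 ± 0.35 in sham ileum (SD, n = 4 and 3), a log2 difference of -1.40 ± 0.25 (SE; adjusted p = 0.0124 in limma). Pou2f3 averaged 4.57 ± 0.11 in SBS ileum, where 1 of 4 arrays detected it, and 5.27 ± 0.18 in sham ileum, with a difference of -0.70 ± 0.12 (adjusted p = 0.0106 in limma). Since its level in SBS ileum rests mostly on background and it passed the detection filter through sham arrays, no fold is given for it. With no filter, over all 22517 probes, the adjusted p in limma was 0.0168 for Pou2f3 and 0.0456 for Plcg2.

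Hpgds differed by -0.74 ± 0.19 (adjusted p = 0.0645 in limma), Dclk1 by -0.57 ± 0.16 (adjusted p = 0.0818) and Alox5ap by -0.19 ± 0.16 (adjusted p = 0.62), which did not pass. The genes called lower were thus Plcg2 and Pou2f3, with none called higher; 2.29% of all probes tested were lower and 0.646% higher. SBS arrays lay wholly below sham arrays for Plcg2, Dclk1, Pou2f3 and Hpgds, and for 8.43% of all probes. Pou2f3 and Hpgds had to be higher in sham arrays to be tested at all, so nothing is read from how many genes were called or did not overlap. An exact permutation test of each gene, two-sided over 35 splits, cannot go below p = 0.0571 in this design, and Pou2f3, Plcg2, Hpgds and Dclk1 each reached that p.

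Both calls depended on the sham arrays. Without sham ileum 2, the adjusted p was 0.0813 for Pou2f3 and 0.0846 for Plcg2, and without sham ileum 3 it was 0.0562 and 0.0871. In the deposited log2 values, without background correction, the difference of Pou2f3 was -0.36 and that of Plcg2 -1.20, both still passing (adjusted p = 0.0324 and 0.0117 in limma).

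Resected jejunum was compared with 1 sham array, whose spread the model took to be that of the other groups. That array had Fabp6 at 11.51, against 5.98, 6.17 and 7.17 on SBS jejunum 1 to 3 and 13.57 on SBS jejunum 4. The part of the site of sampling in the jejunal differences was not tested. Plcg2 averaged 5.82 ± 0.38 in SBS jejunum (SD, n = 4) and was 7.88 in the sham jejunum, 4.18-fold lower (log2 difference -2.06 ± 0.36, adjusted p = 0.0175 in limma). Pou2f3 averaged 4.32 ± 0.07 in SBS jejunum, where it was not detected, against 5.15 in sham jejunum (log2 difference -0.83 ± 0.18, adjusted p = 0.0418). As in ileum, Pou2f3 passed the detection filter through sham arrays and its level in SBS rats rests on background, so no fold is given for it.

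Dclk1 differed by -0.77 ± 0.23 (adjusted p = 0.154 in limma), Hpgds by -0.58 ± 0.28 (adjusted p = 0.463) and Alox5ap by -0.19 ± 0.24 (adjusted p = 0.874). The genes called lower were again Plcg2 and Pou2f3, with none called higher; 0.832% of all probes were lower and 0.635% higher. The sham array lay above all 4 SBS arrays for each of Plcg2, Pou2f3, Dclk1, Hpgds and Alox5ap, as it did for 19.9% of all probes. As in ileum, the filter fixed part of this for Pou2f3 and Hpgds, and nothing is read from the number of genes.

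The Pou2f3 call in jejunum lay close to the threshold. Over 22 other settings its adjusted p in limma ran from 0.029 to 0.234, and the call was lost in 14 of them, among them leaving out SBS jejunum 1 (0.0552) or rat 36 (0.0697) but not SBS jejunum 4 (0.0378). Plcg2 kept its call without SBS jejunum 1 (adjusted p = 0.0222), SBS jejunum 4 (0.0186) or rat 36 (0.0267), and lost it with median scaling (0.0828), no detection filter (0.066) or the jejunal arrays alone (0.115).

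Within resected rats, jejunum had lower Plcg2 and Dclk1 than ileum. Plcg2 averaged 5.82 ± 0.38 in SBS jejunum and 7.20 ± 0.36 in SBS ileum (SD, n = 4 each), 2.60-fold lower (log2 difference -1.38 ± 0.23, adjusted p = 0.00261 in limma). Dclk1 averaged 4.43 ± 0.01, at background, in SBS jejunum and 5.04 ± 0.31 in SBS ileum, at least 1.2-fold lower (log2 difference -0.62 ± 0.14, adjusted p = 0.0193). Taken rat by rat, jejunum minus ileum was -1.02, -2.44, -1.24 and -0.82 for Plcg2 in rats 36 to 39, and -0.75, -0.31, -0.99 and -0.41 for Dclk1. Both were lower in jejunum in 4 of 4 SBS rats. In the sham rat with both regions, the difference was -0.32 for Plcg2 and -0.31 for Dclk1.

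Pou2f3 differed between the regions of SBS rats by -0.25 ± 0.11 (adjusted p = 0.226 in limma), Hpgds by -0.20 ± 0.18 (0.615) and Alox5ap by -0.17 ± 0.15 (0.623), and in the fit of all probes Gfi1b differed by 0.04 ± 0.11 (0.946). The genes called lower were Plcg2 and Dclk1, with none called higher; 4.37% of all probes were lower and 4.9% higher. SBS jejunum lay wholly below SBS ileum for Plcg2, Dclk1 and Pou2f3, and for 6.42% of all probes. The 2 regions come from the same 4 rats, and an exact two-sided sign-flip test over rats, with 16 arrangements, cannot go below p = 0.125, which Plcg2, Dclk1, Pou2f3 and Hpgds each reached. With rat as a block, 1519 probes were called between the regions against 847 without it, and the calls among the tuft cell genes were the same. The Dclk1 call was lost without SBS ileum 1 (adjusted p = 0.052), SBS jejunum 3 (0.0502) or rat 36 (0.0766), while that of Plcg2 held in the 23 other settings fitted with limma.

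**Figure D2:**
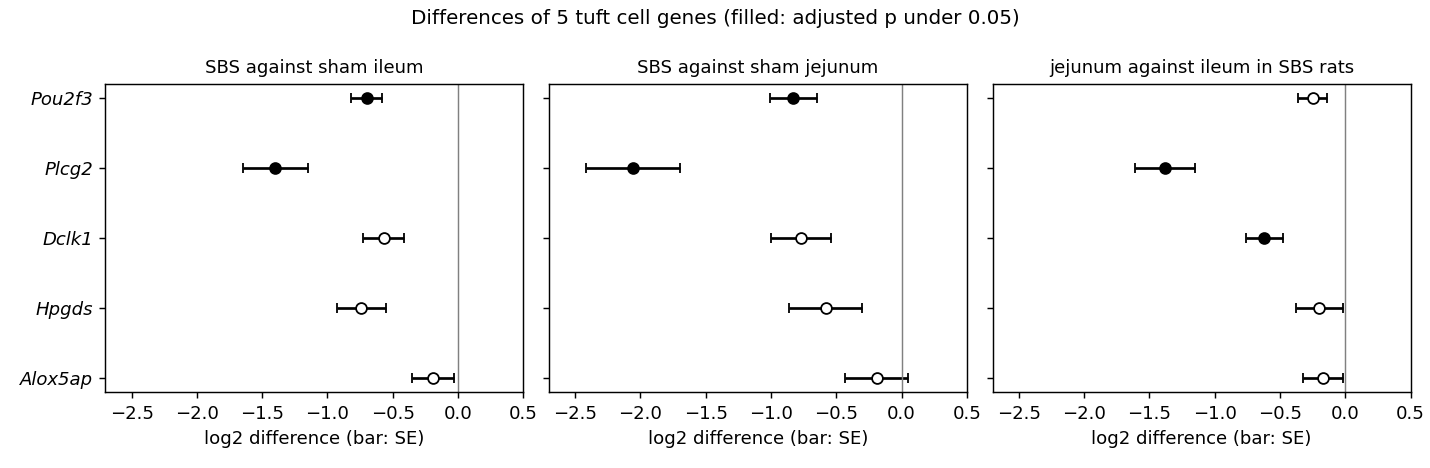
Log2 differences (x axis) with standard errors for 5 tuft cell genes (rows) in SBS against sham ileum, SBS against sham jejunum, and jejunum against ileum in SBS rats; filled points have adjusted p under 0.05 in limma. Plcg2 is filled in all 3 panels (-1.40, -2.06 and -1.38), Pou2f3 in both resection panels and Dclk1 between regions.

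Whether resection acted differently in jejunum and ileum was tested as a difference of the effects. It was -0.67 ± 0.44 for Plcg2 (unadjusted p = 0.158, adjusted p = 1.0 in limma), -0.20 ± 0.28 for Dclk1, -0.13 ± 0.21 for Pou2f3, 0.16 ± 0.34 for Hpgds and -0.01 ± 0.29 for Alox5ap. None passed, 0 reached an unadjusted p under 0.05, and 0.186% of all probes passed. The interval is wide, since it rests on 1 sham jejunal array.

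The group means of Plcg2, Pou2f3, Dclk1, Hpgds and Alox5ap ran in the same order, lowest in SBS jejunum, then SBS ileum, then sham jejunum, and highest in sham ileum. Of all 9137 probes, 9.82% had this order (7.9% without SBS jejunum 1 and 10.8% without SBS jejunum 4, with the 5 genes in it each time). Pou2f3 and Hpgds had to be higher in sham arrays to be tested at all, and their SBS levels rest mostly on background. Nothing is therefore read from how many genes had this order. For Pou2f3, Hpgds and Alox5ap, the difference between SBS jejunum and SBS ileum did not pass the test above. Sham jejunum, with 1 array, has no spread of its own against which to set it apart from sham ileum.

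How closely the genes followed each other from array to array within groups could be judged only in part. Pou2f3 and Hpgds were each detected on 1 of 4 SBS ileal arrays, and Pou2f3, Hpgds and Dclk1 on 0 of 4 SBS jejunal arrays. Their deviations there rest mostly on background. Over the 12 arrays, Plcg2 correlated with Pou2f3 at Pearson r = 0.919 and with Dclk1 at r = 0.902, but these values share the 4 group means. For deviations from the group means over 11 arrays, r was 0.43 for Plcg2 with Pou2f3, -0.03 for Plcg2 with Dclk1 and -0.45 for Pou2f3 with Dclk1. It was 0.53 for Hpgds with Plcg2, 0.47 for Hpgds with Alox5ap and 0.46 for Plcg2 with Alox5ap. The remaining pairs had 0.03 (Pou2f3 with Hpgds), -0.06 (Pou2f3 with Alox5ap), -0.1 (Dclk1 with Alox5ap) and -0.24 (Hpgds with Dclk1). In SBS ileum 2, Plcg2, Pou2f3, Hpgds and Alox5ap had the highest level of the group and Dclk1 the lowest.

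Among 6703 other measured genes, those most like Plcg2 over the 12 arrays were Evl (r = 0.977), Ptprcap (0.976) and Il21r (0.976), and Pou2f3 came at rank 48. These values share rats and group means. For deviations from the group means over 11 arrays, r was 0.78, 0.81 and 0.80 for Evl, Ptprcap and Il21r. The deviations still share rats, and the genes were picked by r over the same arrays. The values for deviations, here and below, are thus no separate check. Ptprcap and Il21r are best known from lymphocytes, as a partner of the phosphatase CD45 and as the interleukin 21 receptor. Most like Pou2f3 were Myo1g, a myosin of blood cells (r = 0.967), Setd2 (0.964) and Icam2 (0.957), with 0.80, 0.66 and 0.48 for deviations and Plcg2 at rank 33. Most like Dclk1 were Zc3h11a (r = 0.975), Supt5h (0.966) and Tec, a kinase of blood cells (0.95), with 0.81, 0.79 and 0.60 for deviations and Plcg2 at rank 36. Most like Hpgds were Snx20 (r = 0.963), Nap1l1 (0.954) and Kmo (0.954), with 0.88, 0.82 and 0.86 for deviations. Most like Alox5ap were Men1 (r = 0.887), Ift81 (0.864) and Gbp2 (0.861), with 0.86, 0.83 and 0.85.

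A wider list of 66 tuft cell genes, the 8 among them, had 46 genes on the array, of which 28 were measured and 14 were detected on 0 arrays. In ileum, 7 of the 28 were called lower, Plcg2 and Pou2f3 among them, and 0 higher, where 2.29% of all probes were called lower. The list was chosen with earlier results of these data known, and Pou2f3 passed the detection filter through sham arrays. Nothing is therefore read from how many genes of the list were called. Of the 23 genes not described above, 5 were called lower, and the median log2 difference of the 23 was -0.29 against 0.03 over all probes. These 5 were Rac2, a small GTPase of blood cells (-1.39 ± 0.21, adjusted p = 0.00666 in limma), Inpp5d, the lipid phosphatase SHIP1 (-1.08 ± 0.22, 0.0242), Rgs2, a regulator of G protein signals (-0.77 ± 0.17, 0.0316), the tyrosine phosphatase Ptpn18 (-0.68 ± 0.15, 0.0295) and the kinase Bmx (-0.50 ± 0.11, 0.0345). Rac2 and Inpp5d are widely expressed by leukocytes.

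Of the wider list in ileum, Ptpn6 (-1.05, adjusted p = 0.0593 in limma) and Tuba1a (-0.86, 0.171) were the largest that did not pass. By role, 1 of 5 measured transcription factors, 2 of 7 signalling genes (Plcg2 and Rgs2) and 4 of 9 cytoskeletal and other markers were called lower in ileum. The same count was 0 of 4 for eicosanoid genes and 0 of 3 for cytokine and receptor genes. The genes on the array that were detected on no array included Il25, the cytokine by which tuft cells call on lymphoid cells, the leukotriene C4 synthase Ltc4s, the taste receptors Tas1r1 and Tas1r3, and the factors Spib, Hmx2 and Etv1.

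In jejunum, 0 of the 23 other genes of the list passed, where 0.832% of all probes were lower, with a median of -0.29 against 0.01 over all probes (-0.29 without SBS jejunum 1 and -0.30 without SBS jejunum 4). Those with the largest differences were Ptpn6 (-1.11, adjusted p = 0.244 in limma), Inpp5d (-1.11, 0.139), Rac2 (-1.09, 0.123) and Tuba1a (-0.95, 0.442). Between the regions of SBS rats, 1 of the 23 was lower in jejunum, a share near the 4.37% of all probes. It was Il10rb, a chain of the interleukin 10 receptor (-0.60 ± 0.11, adjusted p = 0.0035 in limma, 0.00683 without SBS jejunum 1 and 0.00511 without SBS jejunum 4). Gnai2 (-0.62, adjusted p = 0.088), Inpp5d (-0.54, 0.14) and Cbr3 (0.51, 0.135) did not pass, and the median was -0.12 against -0.01 over all probes. For the difference of resection effects, the largest were Cd24 (-0.84), Runx1 (0.36), Ascl2 (-0.35) and Ptpn18 (0.30), each with adjusted p = 1.0.

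**Figure D3:**
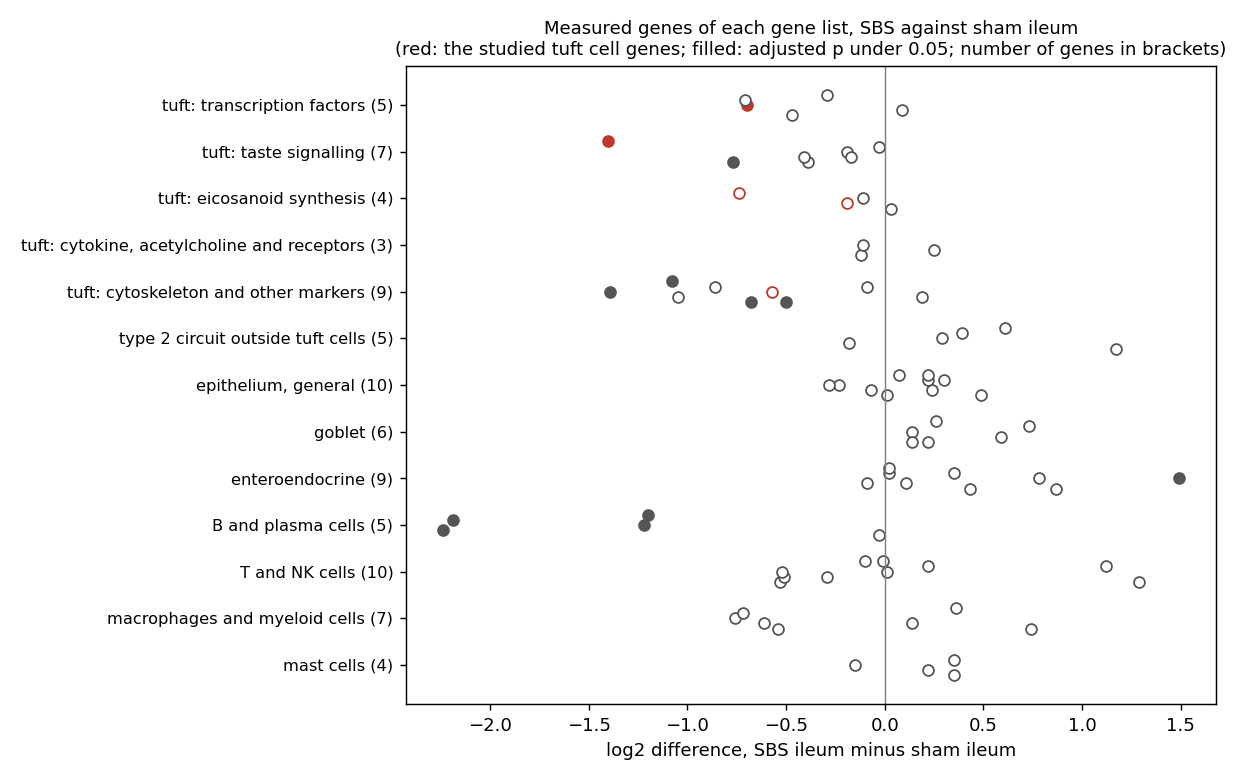
Log2 difference of SBS minus sham ileum (x axis) for each measured gene of 13 lists (rows, number of genes in brackets); filled points have adjusted p under 0.05 in limma, and red points are the tuft cell genes of the opening. Filled points lie below 0 in the tuft cell lists and in the list of B and plasma cells, where 4 of 5 genes are filled, and 1 lies above 0, Gcg of the enteroendocrine list.

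Markers of other cells that mucosa holds moved with these genes in part. In ileum, 4 of 5 measured B and plasma cell genes were called lower, where 2.29% of all probes were: Cd79b (-2.24, adjusted p = 0.00458 in limma), Ms4a1 (-2.19, 0.00369), Cr2 (-1.22, 0.00826) and Mzb1 (-1.20, 0.0242). The mean level of that list was 4.53 to 5.11 on SBS ileal arrays and 5.70 to 6.32 on sham ileal arrays, and Pax5, Cd22 and Tnfrsf17 of the same list were detected on 0 arrays. Its highest SBS ileal array, SBS ileum 2, was also the highest of its group for Plcg2 and for the T and NK cell list (7.09). Ms4a1 and Cr2 were detected on the 4 sham arrays and SBS ileum 2 only, so that they too passed the filter mainly through sham arrays. The part of B cells in the lower Plcg2 of resected ileum was not tested. Among the other lists in ileum, 0 of 10 T and NK cell genes (mean level 6.40 to 7.09 in SBS and 6.31 to 6.89 in sham ileum), 0 of 7 myeloid genes (5.35 to 6.69 in SBS and 6.06 to 6.28 in sham ileum) and 0 of 4 mast cell genes (5.30 to 6.67 in SBS and 5.48 to 5.82 in sham ileum) passed. Of the mast cell markers, Kit, Hdc, Ms4a2, Mcpt4, Tpsab1 and Tpsb2 were detected on 0 arrays. General epithelial genes had 0 of 10 called, with mean levels of 10.27 to 10.57 in SBS and 10.28 to 10.44 in sham ileum. Goblet cell genes had 0 of 6 called (11.38 to 11.77 in SBS and 10.97 to 11.42 in sham ileum). Of 9 enteroendocrine genes, 1 was called higher, the proglucagon gene Gcg (1.49, adjusted p = 0.00154 in limma). Lists for eosinophils, platelets, red cells, smooth muscle, endothelium and pancreas had 1 to 3 genes measured each, with 0 called in any comparison.

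In jejunum, the B and plasma cell list had a mean level of 4.63 to 4.74 in SBS rats and 5.53 in the sham rat, with 0 of 5 genes called. The T and NK cell list lay at 5.36 to 6.03 in SBS rats and 6.24 in the sham rat, and the epithelial list at 10.01 to 10.23 in SBS rats and 10.19 in the sham rat, each with 0 of 10 called. The same held for these 3 lists without SBS jejunum 1 or SBS jejunum 4, where 0 genes passed. Of 6 measured goblet cell genes, 2 were higher in SBS jejunum and 0 lower, where 0.635% of all probes were higher. Spink4 averaged 13.27 in SBS jejunum and was 8.64 in sham jejunum (log2 difference 4.63, adjusted p = 0.000416 in limma), and Reg4 averaged 12.27 in SBS jejunum and was 8.76 in sham jejunum (3.51, 0.0208). Both passed without SBS jejunum 1 (adjusted p = 0.00102 and 0.0333) and without SBS jejunum 4 (0.000895 and 0.0208). The mean level of the goblet list was 12.01 to 12.28 in SBS jejunum and 10.66 in sham jejunum. Agr2 (log2 difference 0.56), Tff3 (0.35), Zg16 (-0.0) and Clca1 (-0.20) did not pass, and the median of the list was 0.45. Of the enteroendocrine genes, Gcg was lower in SBS jejunum (-2.01, adjusted p = 0.00203 in limma). The part of these cells in the levels of the tuft cell genes was not tested.

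Between the regions of SBS rats, other lists moved. There, 7 of 10 T and NK cell genes were called lower in jejunum, where 4.37% of all probes were. Among them were Cd8a (-1.84, adjusted p = 0.00315 in limma), Cd3d (-1.50, 0.0155) and Lck (-1.35, 0.0114). Nkg7 (-1.34, adjusted p = 0.128 in limma), Klrd1 (-0.03, 0.931) and Cd3g (0.23, 0.773) did not pass. Without SBS jejunum 1, 5 of the 10 passed, and without SBS jejunum 4, 4 of the 10; Cd8a, Cd3d and Lck passed both times. The mean level of that list was 5.36 to 6.03 in SBS jejunum and 6.40 to 7.09 in SBS ileum, with Cd4 and Cd5 detected on 0 arrays. The B and plasma cell list had 0 of 5 called and lay at 4.63 to 4.74 in SBS jejunum and 4.53 to 5.11 in SBS ileum. The epithelial list had 1 of 10 lower, the intestinal factor Cdx2 (-0.60, adjusted p = 0.00924 in limma), which passed without SBS jejunum 1 (0.0168) and without SBS jejunum 4 (0.0169). Of the goblet genes, Spink4 (1.97, adjusted p = 0.000714 in limma) and Reg4 (2.94, 0.000734) were higher in jejunum and Clca1 (-1.16, 0.0287) lower, where 4.9% of all probes were higher. Of the 9 enteroendocrine genes, 4 were lower (Gcg, Pyy, Nts and Sct) and 1 higher (Cck, 1.28, adjusted p = 0.0359 in limma), and Cck did not pass without SBS jejunum 1. The part of T cells in the lower Plcg2 of SBS jejunum was not tested.

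**Figure D4:**
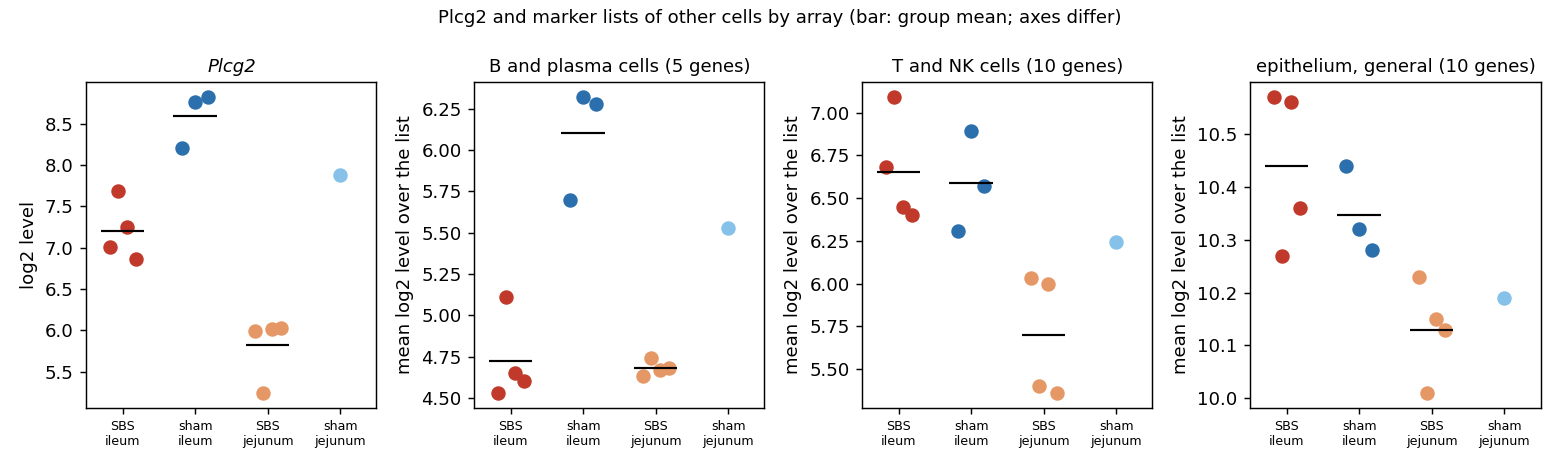
Log2 level of Plcg2 and mean log2 level of 3 marker lists (y axes, which differ between panels) on each array, by group, with bars at group means. The B and plasma cell list is at 4.53 to 5.11 in SBS ileum and 5.70 to 6.32 in sham ileum, while the T and NK cell list is at 5.36 to 6.03 in SBS jejunum and 6.40 to 7.09 in SBS ileum.

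The 6 differences that passed were followed through the other settings of processing. The 4 of Pou2f3 and Plcg2 between SBS and sham rats each lost their call in at least 2 of these settings, and Dclk1 between regions lost it in 3. All 6 kept their direction in all of them.

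**Figure D5:**
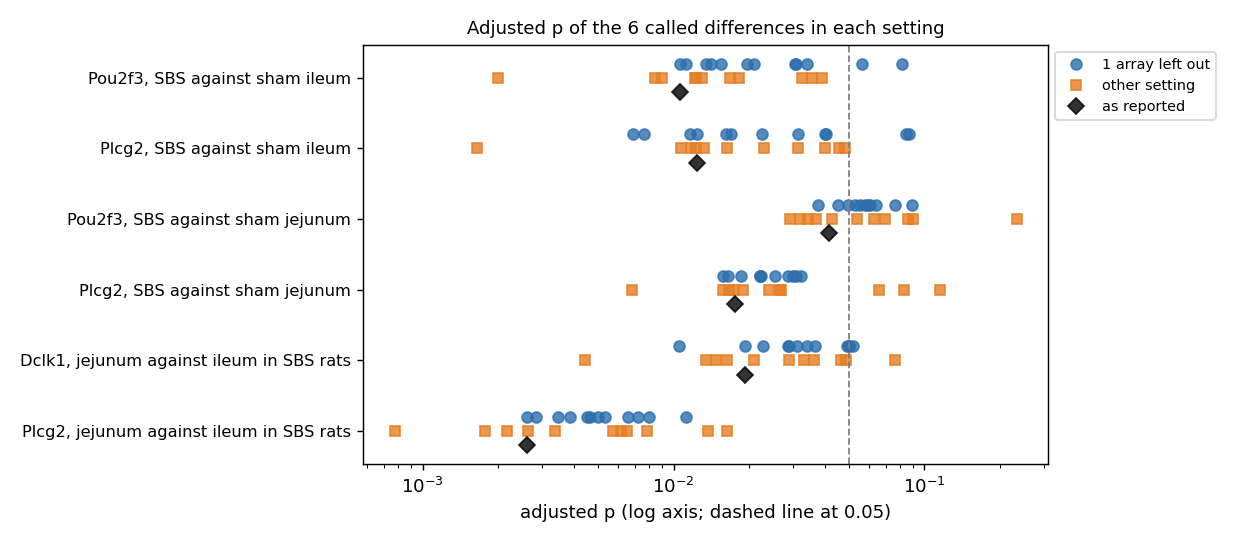
Adjusted p in limma (x axis, log scale, dashed line at 0.05) of the 6 called differences (rows); black diamonds are the values as reported, blue circles leave out 1 array and orange squares are other settings. Plcg2 between the regions of SBS rats stays between 0.000772 and 0.0163, while Pou2f3 in jejunum lies on both sides of the line.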

How the data were processed

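The labels describe total RNA of intestinal mucosa, labelled with biotin and hybridized to Illumina RatRef-12 BeadChips. The deposited table held, per probe and array, a bead signal (an intensity, linear and before any normalization) and a detection p-value. The log2 values of the deposited series matrix equal quantile normalized log2 signals without background correction (largest difference 5e-06, median 5.86 on each array). The scanner software is not given in the sources used here.

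Signals were background corrected with the detection p-values, quantile normalized and log2 transformed (neqc, offset 16, limma 3.58.1, R 4.3.3). The detection filter described above kept 9137 of 22517 probes. One mean per group was fitted over 12 arrays (lmFit, eBayes), tests were two-sided with Benjamini-Hochberg adjustment over all 9137 probes, and adjusted p under 0.05 was called. For a probe that no array of the lower group detected, a fold, where given, is a bound on the difference of the means measured. It is set against the lowest level each array detected and does not allow for the error of the means. The number of arrays limits the precision. The analysis was tested on simulated data.

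Of the probes, 13787 had 1 gene symbol in the platform annotation and 8730 had none; 13747 symbols were matched to RefSeq by Entrez identifier and 5 by accession alone, and 4 were updated. Members and gene lists were chosen with earlier results of these data known. Named were all members with a probe; in the wider list, each gene called and up to 4 per comparison by size of difference; and for likeness, 3 genes per member.

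An SBS ileal and an SBS jejunal array that share a code were taken as 1 rat. Their deviations from the group means correlated at 0.6587, 0.4669, 0.1921 and 0.4424 over 9137 probes. Same-numbered SBS and sham arrays are of different rats. Alternatives were other background corrections, normalizations and filters, array weights, rat or label number as a block, the compared arrays only, each array left out, and, added after the data were seen, rat 36 left out.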

Additional observations from a re-analysis of the deposited data

Results flagged for a closer look

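In groups of 4 arrays, 1 array stood apart from the other 3 (gap over range above Dixon's critical value) in 5 of the 12 sets of a gene and a group tested. That value is set for about 1 in 20 with normally distributed values, while several of these sets lie at background. The share over all probes was not computed, so nothing is read from the count. Plcg2 was at 5.24 on SBS jejunum 2, with the other SBS jejunal arrays at 5.99 to 6.03 and all 4 detected. Hpgds was at 5.03 on SBS ileum 2, the only SBS array on which it was detected, with the others at 4.37 to 4.43. Gfi1b was at 4.79 on SBS ileum 4, where it was detected, with the others at 4.48 to 4.53. Pou2f3 was at 4.42 on SBS jejunum 4, with the others at 4.28 to 4.29, and Dclk1 at 4.44, with the others at 4.42, none of these detected.

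The marker genes Gcg and Spink4, of other cell types, differed between the regions in the effect of resection, by the test of the difference of effects (jejunum minus ileum). For the enteroendocrine gene Gcg it was -3.50 ± 0.28 (SE, log2; adjusted p = 0.000184 in limma), with Gcg lower in SBS jejunum and higher in SBS ileum than in the sham rats. For the goblet cell gene Spink4 it was 3.90 ± 0.52 (adjusted p = 0.00882 in limma). Both rest on 1 sham jejunal array. On it, the ileal gene Fabp6 was at 11.51, against 5.98, 6.17 and 7.17 on SBS jejunum 1 to 3 and 13.57 on SBS jejunum 4. The part of the site of sampling in these differences was not tested.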

How the results depend on the processing

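The number of tuft cell genes called was 2 in each of the 3 comparisons of groups and 0 for the difference of resection effects. In ileum it was 4 with array weights and 0 to 3 when 1 array was left out, with 0 without sham ileum 2 or sham ileum 3. In jejunum it was 0 with median scaling or with the compared arrays only, 1 with an offset of 50, cyclic loess, no filter (Pou2f3), a filter at p under 0.01 or without rat 36, and 1 to 2 with 1 array left out. Between regions it was 1 without rat 36, and 1 to 2 with 1 array left out. In ileum, Dclk1 passed with median scaling (adjusted p = 0.0223 in limma), cyclic loess (0.0299), array weights (0.029) or without SBS ileum 3 (0.0328), and Hpgds with array weights (0.0266) or without SBS ileum 2 (0.0151). The difference of effects, called for no gene, turned sign with median scaling for Pou2f3 (0.02), Dclk1 (0.05) and Alox5ap (0.1), and for Alox5ap also with the series matrix (0.0038) and cyclic loess (0.05). With 1 array left out, it ran from -0.16 to 0.08 for Alox5ap and from -0.04 to 0.32 for Hpgds. Median scaling moved the median of all probes in it to 0.1423. Values near background shrank by over 1.5 times with an offset of 50 (Pou2f3 -0.33 in ileum and -0.37 in jejunum, Dclk1 -0.28 between regions) and in the series matrix (Dclk1 -0.35 between regions). The cause of these moves was not tested.

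Rat as a random replicate block (correlation 0.349) and label number as a fixed block each left 2, 2 and 2 genes called, and the block changed no call of a tuft cell gene (Plcg2 in ileum, adjusted p = 0.0229 with the random block). Over all probes, 268 were called in ileum, against 23 when sham ileum 2 was left out, 25 when sham ileum 3 was, 124 when SBS ileum 1 was, 127 when rat 36 was, 162 when SBS ileum 4 was, 170 with no filter, 788 with the label number block and 929 with array weights. In jejunum 134 were called, against 21 with the compared arrays only, 77 with no filter, 87 with median scaling, 244 with array weights and 378 with the label number block. Between regions 847 were called, against 1519 with the rat block, and for the difference of effects 17, against 8 to 51. With median scaling, calls in jejunum split into 56 higher and 31 lower, against 58 and 76 as reported, between regions into 513 and 261, against 448 and 399, and in ileum into 25 and 211, against 59 and 209. A mean over several probes could not be tried, since each gene had 1 probe.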

Other observations

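The partners of tuft cells in type 2 immunity were little seen on these arrays. Of 15 genes listed, 14 were on the array, 5 were measured, and Il13, Il4, Gata3, Ptgdr2, Klrg1, Cysltr1 and Ptgdr were detected on 0 arrays. Of the 5, 0 passed between SBS and sham rats in ileum or jejunum. The epithelial alarmin Il33, detected on all 12 arrays, differed by 0.39 in ileum (adjusted p = 0.502 in limma) and by 0.23 in jejunum (0.919), and the growth factor Areg by 1.17 in ileum (0.121). Arg1 is an arginase of alternatively activated macrophages that epithelium can also express. Its level was higher in SBS jejunum (mean 5.85) than in SBS ileum (mean 4.47). The adjusted p in limma was 0.000112, with 0.000443 without SBS jejunum 1 and 7e-05 without SBS jejunum 4. Arg1 was detected on 6 of the 12 arrays and not in SBS ileum. It passed the detection filter mainly through SBS jejunal arrays, so no fold is given for it.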
